A study of Mus musculus with 17 samples.

Results

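Nuclear RNA of the medial prefrontal cortex (mPFC) was counted over 36293 genes, 2202 of them microRNA genes, and the 550 microRNA genes with 45 or more reads summed over the 9 mice are described here. The mice were adult males at postnatal day 90, of the strain C57BL/6 by the labels and C57BL/6J by the study's methods, and the labels name no transgene, deleted allele or drug in either group. Of the 9 mice, 4 were unstressed controls and 5 had been exposed to chronic unpredictable stress (CUS), in which several different stressors were applied each day. By the study's methods, mice for this assay were sampled after their last behavioral test. Controls were housed in another room and handled every day, so room and handling cannot be told apart from the stress itself. Nuclei were isolated from tissue punches of each mouse separately, and the total RNA in them was sequenced after removal of ribosomal RNA with a kit that keeps the strand.

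Because the members were chosen by their reads, their levels are given as a description. The limit on reads did not use the difference between CUS and control mice, but it summed 5 CUS and 4 control mice. A shallow gene that is higher in CUS mice therefore reaches it more easily. Just inside the limit lay Mir1960, Gm23391 and Mir7673 with 45 reads each, and 11 genes with 44 reads lay just outside it. At least 1 read was present on 1405 of the 2202 genes. Their intervals are short, with a median length of 81 bases (43 to 171), and the median member held 139 reads over the 9 mice together.

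A microRNA begins as a hairpin within a longer primary transcript, from which the Drosha and Dgcr8 proteins cut it while still in the nucleus. Dicer1 then trims the exported hairpin, and the mature strand guides an Argonaute protein to messages that pair with its seed. Many hairpins lie in introns or exons of longer host genes and are transcribed together with them. Libraries of total nuclear RNA fragments do not single out the mature strand, so a count here is the number of reads on the hairpin's stretch of the genome and does not measure mature microRNA.

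The mature strands of the changed genes with a RefSeq entry, and those strands of neighbors that share a seed with them, are printed first, since the seed is what a microRNA reads its targets with. RefSeq (assembly GRCm38.p6) holds a microRNA gene at the place of 381 of the 550 members. Mature sequences were kept here for 377 members, in total 653 sequences with 580 different seeds. Strands from part of the genome were left out before this count, so it does not give all that RefSeq holds. For Gm44347, one of the changed genes, no mature sequence was matched. The capitals mark the seed, bases 2 to 8, and each sequence is read from its 5′ end. Of the genes past the threshold in the comparison below, 6 come from the Dlk1-Dio3 domain, an imprinted region of distal chromosome 12 whose noncoding RNAs Meg3, Rian and Mirg are expressed from the maternal chromosome:
mmu-miR-134-5p: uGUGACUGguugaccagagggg
mmu-miR-134-3p: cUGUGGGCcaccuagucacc
mmu-miR-369-3p: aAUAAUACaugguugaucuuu
mmu-miR-369-5p: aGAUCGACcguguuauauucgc
mmu-miR-377-5p: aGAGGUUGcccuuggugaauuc
mmu-miR-377-3p: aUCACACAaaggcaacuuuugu
mmu-miR-3072-5p: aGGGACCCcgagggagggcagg
mmu-miR-3072-3p: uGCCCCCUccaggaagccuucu
mmu-miR-453: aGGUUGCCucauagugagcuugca
mmu-miR-496a-5p: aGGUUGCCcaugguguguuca
mmu-miR-1193-5p: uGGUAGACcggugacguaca
mmu-miR-379-5p: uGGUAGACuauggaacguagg
mmu-miR-1193-3p: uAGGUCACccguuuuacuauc
mmu-miR-370-5p: cAGGUCACgucucugcaguu

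The last 6 lines pair neighbors of the domain by seed: miR-453 with miR-496a (both in Mirg), miR-1193 with miR-379 (both between Rian and Mirg), and the other arm of miR-1193 with miR-370 (in Rian). In all, 54 of the 59 domain members had a mature sequence, their 101 sequences held 92 different seeds, and 9 seeds were shared by 2 domain members. Outside the domain, the changed gene Mir27b lies in a trio with Mir23b and Mir24-1, and a copy of this trio (Mir23a, Mir27a and Mir24-2) lies on chromosome 8. The miR-27 strands of the 3p arm share a seed between the copies and the miR-24 strand of the 3p arm is the same from both, whereas the seeds of miR-27a-5p and miR-27b-5p differ:
mmu-miR-27b-5p: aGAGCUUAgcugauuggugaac
mmu-miR-27b-3p: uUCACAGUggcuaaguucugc
mmu-miR-27a-3p: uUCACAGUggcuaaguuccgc
mmu-miR-24-3p: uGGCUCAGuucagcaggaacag

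The samples held between 26188825 and 30525015 reads on genes, of which 0.251 to 0.356% fell on microRNA genes. As the controls and CUS mice are separate animals, the p-values set the difference between groups against the spread between mice. By the study's methods mice were housed in groups, and which of them shared a cage is not given in the sources used here. Each of the 16 pairs of mice within a group differed by more than sampling noise. Chi-square per degree of freedom was 8.30 to 26.9 for pairs of controls and 3.04 to 10.8 for pairs of CUS mice, so the controls spread more. The tissue carried the markers of cortex, and some marker groups moved with the stress. Among 5 astrocyte markers, Aqp4 and Gja1 decreased (log2 fold change -0.69 and -0.56) and the list's median was -0.56. Gfap (-0.58) and Slc1a3 (-0.20) were lower without passing the threshold, while Aldh1l1 was not lower (0.04 ± 0.09). Summed levels were 253 to 289 CPM (reads scaled to the size of the library) in controls and 197 to 246 in CUS mice. Oligodendrocyte markers had a median of -0.50 with none of 5 past the threshold, and they spread widely in controls (202 to 479 CPM) against 227 to 277 in CUS mice. Of 5 markers of cortical excitatory neurons, Neurod6 increased (0.46), and all 5 had positive values. Their summed levels overlapped, with 735 to 1199 CPM in controls and 958 to 1044 in CUS mice. Control mouse 3 had the highest sum of this list and of the oligodendrocyte list. Markers of striatal neurons summed to 64.4 CPM in control mouse 4 and to 16.5 to 25.6 CPM in the other 8 mice, so this punch stood apart. No marker of inhibitory neurons, precursors, microglia, endothelial cells or choroid plexus passed the threshold, and Ttr and Folr1, which define choroid plexus, had 5 and 9 reads in all mice together, while the third marker of that list, Kl, had 475 reads and a log2 fold change of -0.25 ± 0.19. In bulk tissue, fewer cells of a type and less RNA per cell cannot be told apart, and the part of these shifts in the results below was not tested.

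The most abundant intervals of the class were not typical microRNA genes. The top 5 members by reads (Gm47305 with 149402 reads, Gm47287 with 142935, Gm47295 with 103035, Gm47299 with 78900 and Gm47304 with 66757) each lie within a 7SL RNA gene of the GENCODE M21 annotation. They sit in Rn7s1 and Rn7s2 on chromosome 12 and in Rn7s6 on chromosome 6, genes for the RNA core of the signal recognition particle, and these have near-identical copies, so the split of uniquely mapped reads among them is uncertain. Together the 5 members held 541029 of the 753137 reads on all members, or 67.0 to 76.4% of the member reads of each mouse. Their summed level was 1752, 1687, 2465 and 2075 CPM in the controls and 1722, 2031, 2766, 1965 and 2552 CPM in the CUS mice. The groups overlapped, and the 5 log2 fold changes of 0.08 to 0.19 did not pass the threshold.

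Another 20 members overlapped a small nucleolar, Cajal body or other small RNA gene by at least 50% of their length. The deepest was Mir3069, with 21557 reads, which lies in Scarna13, a guide RNA of the Cajal body. Its levels were 78.7, 74.3, 60.2 and 77.5 CPM in controls and 97.4, 81.3, 77.5, 113 and 95.9 CPM in CUS mice, with a log2 fold change of 0.36 ± 0.11 (SE, adjusted p = 0.0863 by edgeR's quasi-likelihood test). Scarna13 as a whole had a log2 fold change of 0.39 ± 0.10 (edgeR adjusted p = 0.0504). Gm49347, in the small nucleolar RNA Snora74a, followed with 7441 reads and a log2 fold change of -0.09 ± 0.14. The plot of reads by rank shows how steeply the counts fell from these few intervals to the rest.

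**Figure D1:**
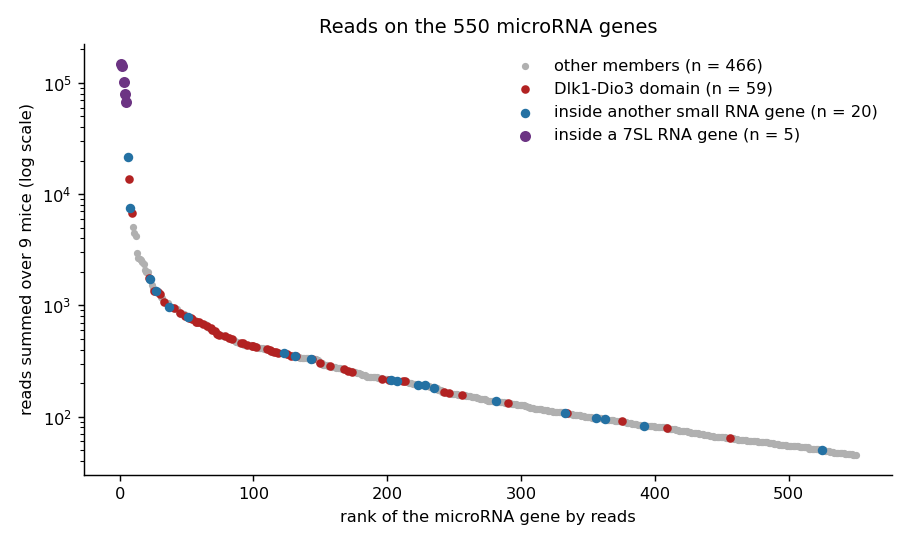
Reads summed over the 9 mice (vertical axis, log scale) for each of the 550 microRNA genes, ordered by rank (horizontal axis). The 5 genes inside 7SL RNA genes held 66757 to 149402 reads each, above every other member, and the 59 genes of the Dlk1-Dio3 domain were spread down to low ranks.

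Of the 550 members, 471 lay wholly within a longer gene of the same strand, in 415 different hosts. The hosts of 392 members were protein-coding, of 47 lincRNAs and of 26 processed transcripts. Leaving aside the 59 domain members and those in small RNA genes, 124 members lay in an exon of the host, 59 crossed an exon edge, 249 lay in an intron, 33 had no host on their strand and 1 had a host without exons in GENCODE M21. Members of the same host share its transcription and are not independent of each other.

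The comparison of CUS with control mice asks which of these intervals carried more or fewer nuclear reads after stress. The filter on low counts kept 402 of the 550 members. It asks for a minimum level in as many mice as the smaller group holds, so a shallow gene can pass through a single group. The 5 CUS mice meet this more easily than the 4 controls. Of the 402 members, 8 passed a false discovery rate (FDR) of 0.05, each with more reads in CUS mice. In the whole table of 18394 genes 1.16% passed in this direction and 2.13% in the other, so 8 higher members of 402 are not far from the share among all genes. The 8 were Mir134, Mir369, Mir377, Mir3072, Mir453 and Mir1193 of the Dlk1-Dio3 domain, Mir27b, and Gm44347, a predicted microRNA gene in an intron of Dlgap2. No member passed with fewer reads by edgeR or by DESeq2. At an unadjusted p under 0.05 there were 49 members with more reads and 6 with fewer, against 21.5% of all genes in either direction.

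More members were higher than lower. A log2 fold change above 0 was found for 267 of the 402 tested members (66.4%) with a median of 0.12 (0.09 without the TMM scaling between libraries), whereas 51.3% of all genes were above 0, with a median of 0.01. Small nucleolar RNA genes kept by the same limit of 45 reads were also shifted (62.7% of 343 above 0, median 0.10), while fewer small nuclear RNA genes were above 0 (41.2% of 68, median -0.05). Control and CUS mice did not overlap for 22 tested members with CUS above, beside 4.06% of all genes, and for 2 (Mir1843a and Mir466q) with CUS below, beside 4.70%. Members with 45 to 99 reads, where the limit and the filter can favor genes high in CUS mice, made up 54 of the 402 (63.0% above 0) and 4 of the 22.

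The calls depended on single mice. Over the 9 fits that each left out 1 mouse, the number of called members was 3 without control 1, 0 without control 2, 11 without control 3 and 10 without control 4. Among CUS mice it was 4 without mouse 1, 4 without mouse 2, 3 without mouse 3, 1 without mouse 4 and 0 without mouse 5. The count over all genes moved with it, from 606 in the full set to 133 without control 2, 140 without CUS 5 and 148 without CUS 4, and up to 1508 without control 3. Mir134 kept its call in 7 of the 9 fits, Mir369 and Mir27b in 6, Mir377 in 3, Gm44347 in 2, and Mir1193, Mir453 and Mir3072 in 1 each. Over these fits their log2 fold changes ran from 0.505 to 0.606 (Mir134), 0.695 to 0.832 (Mir369) and 0.81 to 1.09 (Mir27b). They ran from 0.60 to 0.822 for Mir377, 1.02 to 1.38 for Gm44347 and 0.534 to 0.784 for Mir1193. For Mir453 the range was 0.431 to 0.553 and for Mir3072 0.636 to 0.771. No member passed the threshold with fewer reads in any of these 9 fits.

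The level in each mouse is given for the 8 members. Mir134, known for restricting dendritic spine growth, lies in an exon of Mirg (chr12:109734139-109734209, plus strand, mm10). It had 3.81, 4.18, 4.74 and 4.14 CPM in controls and 6.97, 6.19, 5.73, 5.70 and 6.41 CPM in CUS mice. Every CUS mouse was above every control, and the log2 fold change was 0.55 ± 0.10 (SE, adjusted p = 0.0167 by edgeR).

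Mir369, at an exon edge of Mirg, had 1.55, 1.18, 1.61 and 1.35 CPM in controls and 2.63, 2.21, 2.19, 2.78 and 2.31 CPM in CUS mice. It showed the largest called change of the domain (0.77 ± 0.15, edgeR adjusted p = 0.0198), and the groups did not overlap. Mir377, in an exon of Mirg, had 1.77, 1.82, 2.58 and 2.73 CPM in controls and 3.84, 3.15, 3.74, 3.25 and 4.06 CPM in CUS mice (0.70 ± 0.16, edgeR adjusted p = 0.0367). Controls 3 and 4 stood nearer to the CUS mice than controls 1 and 2 did.

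Mir3072, the last member of Mirg and the shallowest called one of that gene (363 reads), had 0.982, 1.01, 1.27 and 0.987 CPM in controls and 1.88, 1.62, 1.55, 1.56 and 1.93 CPM in CUS mice (0.68 ± 0.16, edgeR adjusted p = 0.0402). Mir453, in an intron of Mirg, had 3.36, 3.17, 4.03 and 3.29 CPM in controls and 4.91, 4.77, 4.18, 4.80 and 5.48 CPM in CUS mice (0.48 ± 0.12, edgeR adjusted p = 0.0465). Control mouse 3 was the highest control for both genes, and for Mir453 it came close to CUS mouse 3.

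Mir1193 has no host in the files and lies between Rian and Mirg (chr12:109715671-109715791). Its levels were 1.70, 2.70, 1.91 and 2.83 CPM in controls and 3.77, 3.91, 3.40, 3.58 and 3.44 CPM in CUS mice (0.66 ± 0.16, edgeR adjusted p = 0.0420). Its neighbor Mir679 (chr12:109715577-109715650) ends shortly before it starts, so that a read may touch both, and its groups did not overlap either (0.47 ± 0.14, edgeR adjusted p = 0.0822).

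Gm44347 (chr8:14350178-14350285) had the largest change of the 8, from 0.566, 0.910, 0.784 and 0.428 CPM in controls to 0.995, 1.89, 1.99, 1.56 and 1.24 CPM in CUS mice (1.19 ± 0.27, edgeR adjusted p = 0.0367). CUS mouse 1 lay only just above control 2. Its host Dlgap2, a scaffold gene of the postsynaptic density, increased as well (0.40 ± 0.10, edgeR adjusted p = 0.0476), from 1714 ± 292 (SD, n = 4) to 2261 ± 98.0 CPM (SD, n = 5). The call of Dlgap2 was lost in 7 of 14 alternative runs. On the log2 scale, the ratio of Gm44347 to Dlgap2 was 0.76 higher in CUS mice (two-sided exact permutation test, p = 0.0317, not adjusted). Gm44347 was singled out by its change in these same mice, so the ratio is no separate support.

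**Figure D2:**
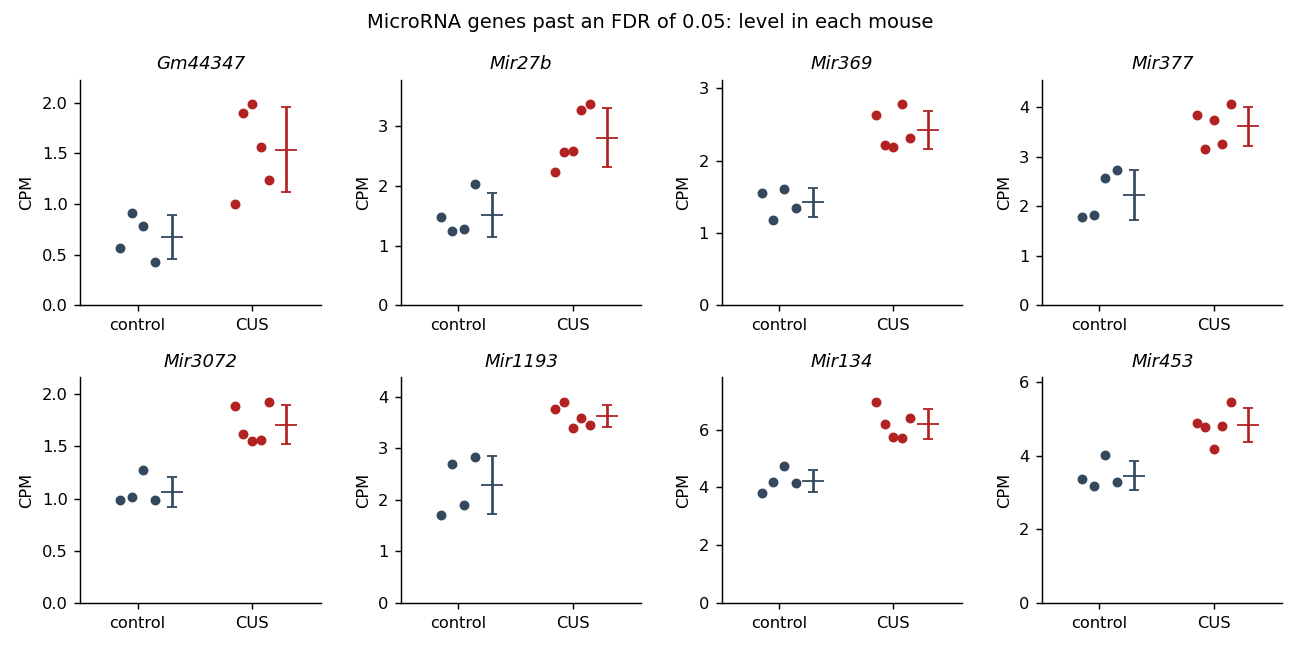
Level in CPM (vertical axes, from 0) of the 8 microRNA genes past an FDR of 0.05 in each control (dark points, n = 4) and CUS mouse (red points, n = 5), with the group mean and SD beside the points. In each panel the lowest CUS mouse lies above the highest control, most narrowly for Gm44347 (0.995 against 0.910 CPM) and Mir453 (4.18 against 4.03 CPM).

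The Dlk1-Dio3 domain held 59 members on the plus strand of chromosome 12, spread over 3 noncoding host genes and the gaps between them. Counted from the start of Meg3, Meg3 itself extends to 30.7 kb, Rian lies from 62.9 to 120.7 kb and Mirg from 188.8 to 208.5 kb. Of the 57 domain members tested, 51 were above 0, with a median log2 fold change of 0.31, and 6 passed the FDR. Outside the domain, 216 of 345 tested members were above 0, with a median of 0.08, and 2 passed. Over all genes, 1.16% passed in this direction.

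The values differed along the domain. In Mirg, all 14 members were above 0, from 0.28 (Mir485) to 0.77 (Mir369), with a median of 0.47. Of these, 5 were called, beside 1.16% of all genes called higher. For 8 the groups did not overlap, beside 4.06% of all genes with CUS above. Between Rian and Mirg, 25 of 26 members were above 0, with a median of 0.30 and 1 call, and the exception was Mir380 (-0.29 ± 0.24). Between Meg3 and Rian, 7 of 11 tested members were above 0 with a median of 0.13 and no call. The 2 members in Meg3, Mir1906-1 and Mir770, had values of 0.10 ± 0.13 and 0.34 ± 0.13, and the 4 in Rian had a median of 0.21, from -0.04 (Mir1188) to 0.45 (Mir370). No test of the difference between these segments was made, as their members share transcripts.

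The reads of a segment may be added up within each mouse. Over the 14 Mirg members, the summed level was 33.1, 32.8, 35.6 and 39.8 CPM in controls and 52.1, 48.0, 47.4, 49.2 and 51.0 CPM in CUS mice. For the 26 members between Rian and Mirg it was 31.0, 37.7, 35.2 and 41.6 CPM in controls and 48.4, 44.4, 41.7, 48.0 and 45.8 CPM in CUS mice. Both sums separated the groups, the second by a narrow margin between control 4 and CUS mouse 3. The 13 members between Meg3 and Rian summed to 12.3, 14.0, 17.0 and 13.0 CPM in controls and 14.0, 14.9, 16.3, 14.5 and 16.4 CPM in CUS mice, and these groups overlapped.

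Control mouse 4, whose punch held the most striatal markers, was the control nearest to the CUS mice in the first 2 sums. Without it, the median over the Mirg members was 0.55 and that between Rian and Mirg 0.33, and 7 domain members were called. Across all 9 fits that left out 1 mouse, the Mirg median lay between 0.43 and 0.55 and the Rian to Mirg median between 0.24 and 0.35.

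Mirg as a gene changed with its members. They held 11071 reads beside 53786 on Mirg, and whether reads were counted for both is not known. Mirg had 159, 171, 173 and 200 CPM in controls and 252, 231, 220, 247 and 236 CPM in CUS mice, without overlap. Its log2 fold change of 0.43 ± 0.07 (edgeR adjusted p = 0.00969) remained past the threshold in each of the 9 fits without 1 mouse (highest adjusted p 0.0429 by edgeR). Rian had 1019, 1063, 1089 and 1168 CPM in controls and 1178, 1181, 1163, 1246 and 1222 CPM in CUS mice, a log2 fold change of 0.14 ± 0.06 that did not pass (edgeR adjusted p = 0.168). Meg3, the most abundant of the trio, had 1691, 1824, 1983 and 1539 CPM in controls and 1953, 1815, 1850, 1980 and 2069 CPM in CUS mice (0.14 ± 0.08, edgeR adjusted p = 0.322).

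Relative to Rian, the level of Mirg was 0.29 higher on the log2 scale in CUS mice (two-sided exact permutation test, p = 0.00794, the smallest that 4 against 5 mice can give). The difference was 0.26 to 0.32 when each mouse was left out, with exact p-values of at most 0.0286. That is the smallest that 4 against 4 mice can give, so these p-values do not measure how stable the difference is. Relative to Meg3 it was 0.30 higher (exact p = 0.0714), and Rian relative to Meg3 differed by 0.00 (exact p = 0.992). These 3 ratios were chosen after the values had been seen, and no adjustment was made.

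Of 9 genes listed for the domain and its edge, 8 were in the files under these names, 6 were tested and 1 (Mirg) passed, or 2 without control mouse 3. Dlk1, a paternally expressed gene that encodes a transmembrane ligand, had a log2 fold change of 0.02 ± 0.16. Wdr25, at the domain's edge, had 0.28 ± 0.10 (edgeR adjusted p = 0.122). Rtl1 and Dio3 held only 24 and 66 reads in all mice and were not tested.

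**Figure D3:**
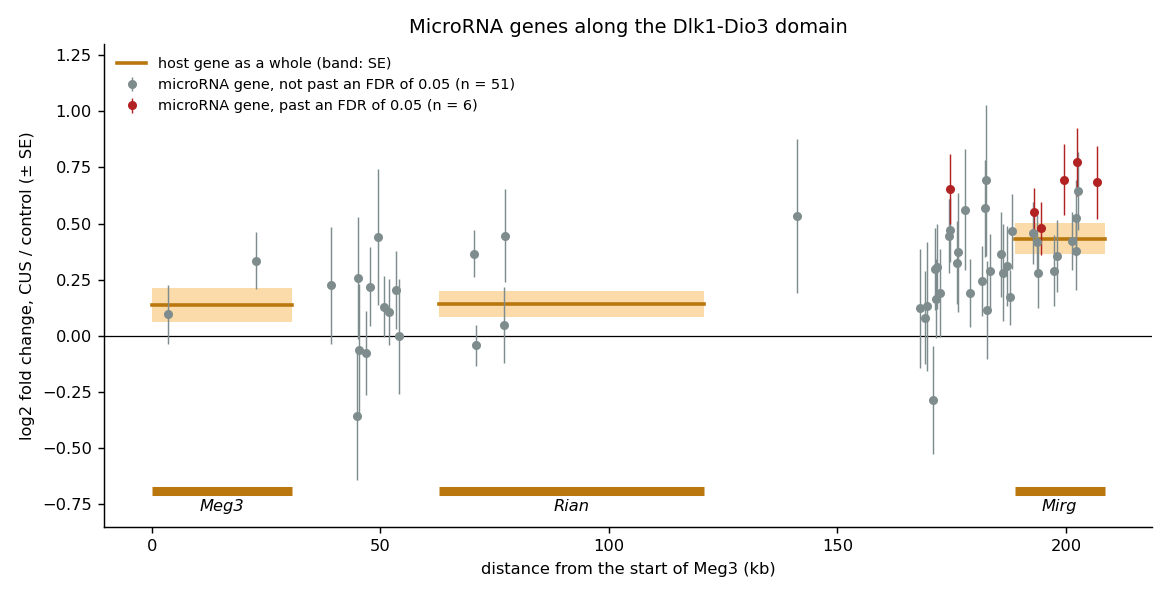
Log2 fold change of CUS over control mice with its SE (vertical axis) for the 57 tested microRNA genes of the Dlk1-Dio3 domain, by distance from the start of Meg3 in kb (horizontal axis), red where past an FDR of 0.05. Orange lines with bands give the host genes Meg3, Rian and Mirg as a whole with their SE, and the medians are 0.13 between Meg3 and Rian, 0.30 between Rian and Mirg and 0.47 in Mirg.

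Within their hosts, the domain members mostly held more reads per kb than the host gene as a whole. The ratio of densities was 11.1 for Mir1906-1 and 4.63 for Mir770 in Meg3. In Mirg it ran from 7.03 (Mir134) down to 1.61 (Mir3072), with a median of 3.48. In Rian, Mir1188 and Mir341 were denser (2.89 and 2.71) and Mir370 and Gm23912 were less dense (0.754 and 0.603) than the host. The level of Mir1906-1, 672 CPM per kb, was the highest of the domain. Relative to the host, Mir369 was 0.33 higher in CUS mice on the log2 scale (exact permutation test, p = 0.0238) and Mir341 was 0.22 higher (exact p = 0.0476). The other 18 domain members with a host did not pass an unadjusted 0.05. Mir369 also had the largest called change of the domain in these same mice, so its ratio is no separate support.

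The trio Mir23b, Mir27b and Mir24-1 lies in 2010111I01Rik, the host on chromosome 13, whose long gene encodes an aminopeptidase. Mir27b had 1.47, 1.25, 1.27 and 2.04 CPM in controls and 2.24, 2.56, 2.59, 3.28 and 3.38 CPM in CUS mice (0.89 ± 0.19, edgeR adjusted p = 0.0270). Mir23b had 0.755, 1.65, 1.16 and 1.41 CPM in controls and 1.74, 2.05, 1.68, 2.25 and 2.31 CPM in CUS mice (0.68 ± 0.21, edgeR adjusted p = 0.0869). Mir24-1 had 0.604, 0.843, 1.23 and 1.35 CPM in controls and 1.10, 1.26, 2.09, 2.19 and 1.69 CPM in CUS mice (0.72 ± 0.27, edgeR adjusted p = 0.143). The groups were separate for Mir27b and Mir23b and overlapped for Mir24-1.

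Their summed level was 3.76 ± 0.81 CPM in controls (SD, n = 4) and 6.48 ± 1.08 CPM in CUS mice (SD, n = 5), without overlap. The host had a smaller value of 0.24 ± 0.06 (edgeR adjusted p = 0.0602), from 387 ± 37.0 to 458 ± 7.92 CPM. Per kb, the 3 hairpins were 19.1, 25.9 and 17.1 times as dense as the whole host. Relative to the host, Mir27b was 0.65 higher in CUS mice on the log2 scale (exact permutation test, p = 0.0556), Mir23b 0.48 (exact p = 0.103) and Mir24-1 0.49 (exact p = 0.198). Fancc, a DNA repair gene, lies on the opposite strand. In the copy on chromosome 8, which has no host in the files, Mir24-2 had a log2 fold change of 0.66 ± 0.34 and Mir23a of 0.28 ± 0.32 (edgeR adjusted p = 0.288 and 0.655), and Mir27a, with 59 reads, was too shallow to test.

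Genes of microRNAs known from neurons followed a list drawn up for brain and cell types. Mir124a-1 makes the abundant neuronal miR-124. It had 1.28, 1.55, 1.31 and 1.48 CPM in controls and 1.71, 1.89, 2.32, 2.42 and 2.31 CPM in CUS mice, without overlap, and just missed the threshold (0.60 ± 0.16, edgeR adjusted p = 0.0579). Its host Mir124a-1hg passed (0.43 ± 0.09, edgeR adjusted p = 0.0246), from 109 ± 12.3 to 146 ± 15.3 CPM. Mir3078, a second hairpin of this host, had 0.34 ± 0.10 (edgeR adjusted p = 0.0825). The second copy, Mir124a-2, had 0.27 ± 0.19, and the third, Mir124a-3, held 4 reads and is no member.

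Mir153, in an intron of the called host Ptprn2, had 0.189, 0.303, 0.261 and 0.296 CPM in controls and 0.604, 0.434, 0.370, 0.398 and 0.344 CPM in CUS mice (0.69 ± 0.28, edgeR adjusted p = 0.178). No control reached the filter's minimum level, so Mir153 was tested only through its CUS mice. Mir128-2, in an intron of Arpp21, had 0.57 ± 0.24 and did not overlap between groups (edgeR adjusted p = 0.195), while the copy Mir128-1, in R3hdm1, had 0.12 ± 0.15. Neither passed. Mir9-1 and Mir9-2, copies of a microRNA of neural progenitors, had 0.65 ± 0.32 and 0.08 ± 0.30. For the activity-regulated pair Mir212 and Mir132, in an intron of 1700016P03Rik, Mir212 had 0.34 ± 0.35 and Mir132 held 53 reads and was not tested. Their host decreased (-0.47 ± 0.11, edgeR adjusted p = 0.0368).

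The other neuronal genes of that list were near 0 or imprecise. Mir137 had -0.02 ± 0.34, Mir138-1 0.33 ± 0.24, Mir138-2 -0.08 ± 0.30, Mir22 0.06 ± 0.21 and Mir344 0.14 ± 0.18, and none passed. Mir488, in an intron of Astn1, and Mir338, an oligodendrocyte microRNA in Aatk, held 85 and 62 reads and were not tested. Mir126a, an endothelial microRNA in Egfl7, had 0.46 ± 0.36. Genes of blood and immune microRNAs were hardly detected, with 16 reads for Mir223, 5 for Mir142 and none for Mir155, Mir144 and Mir451a over the 9 mice.

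Seeds also group members from different loci, though some members with the same seed share a host or lie close together. The largest group was that of the let-7 seed, known from a family of developmental microRNAs, with 9 members for which a strand with this seed was matched. Of the 7 tested among them 5 were above 0, from -0.18 (Mirlet7c-1) to 0.59 (Mirlet7b), with a median of 0.15 and no call. Mirlet7b and Mirlet7c-2 share a host, and Mirlet7d, Mirlet7f-1 and Mirlet7a-1 lie close together on chromosome 13. The 9 members are therefore not independent of each other. Mirlet7a-2, for which only the strand of the other arm was matched, is not among these 9 and had -0.10 ± 0.25. The 3 members with the miR-29 seed were all above 0 (0.26 to 0.36), but Mir29b-2 and Mir29c share the host A330023F24Rik. The deepest, Mir29c, had 7.55, 7.82, 6.95 and 10.9 CPM in controls and 10.7, 8.64, 11.0, 12.2 and 9.68 CPM in CUS mice. Its groups overlapped through control 4 (0.33 ± 0.13, edgeR adjusted p = 0.176). The strand let-7c-5p is the same from Mirlet7c-1 and Mirlet7c-2. For each seed the strands of 2 members are shown, the lowest and the highest tested value for let-7 and the deepest and the highest for miR-29:
mmu-let-7b-5p: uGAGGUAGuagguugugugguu
mmu-let-7c-5p: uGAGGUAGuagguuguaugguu
mmu-miR-29c-3p: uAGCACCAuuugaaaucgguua
mmu-miR-29a-3p: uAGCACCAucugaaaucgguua

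Genes with 3 or more members were Mirg, Rian, 2010111I01Rik and A230057D06Rik, a lincRNA on chromosome 7 that holds Mir344, Mir344b, Mir344c and Mir344e. The deeper Mir344-2 and Mir344g lie outside it, with 944 and 1073 reads and log2 fold changes of -0.04 and 0.19, and neither passed. Of the 8 members in A230057D06Rik, 5 were tested and none passed, with values from -0.12 to 0.14. The host itself had 0.09 ± 0.07.

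The largest value among the tested members without a host was that of Mir6236, and it rested on 2 mice. Its levels were 0.113, 0.405, 0.112 and 0.197 CPM in controls and 0.533, 0.0394, 3.64, 1.23 and 0.0344 CPM in CUS mice. CUS mice 3 and 4 were high and CUS mice 2 and 5 were below every control, and the log2 fold change of 2.38 ± 1.01 did not pass (edgeR adjusted p = 0.195). Mir682, also without a host, had 0.113, 0.169, 0.187 and 0.230 CPM in controls and 0.391, 0.513, 0.572, 0.298 and 0.379 CPM in CUS mice, without overlap, from 81 reads in all (1.26 ± 0.32, edgeR adjusted p = 0.0505). Mir682 passed the filter on low counts only through its CUS mice, as no control reached the minimum level. These 2 genes were chosen after their values had been seen.

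Members were next compared with their hosts. All 415 hosts were tested, 16 increased and 13 decreased in CUS mice, and their median log2 fold change was 0.02. In hosts that increased, 25 of 26 tested members were above 0, beside 66.4% of all tested members. In hosts that decreased, 3 of 4 were below 0. These counts rest in part on the 14 members of Mirg. Over all 18394 genes 1.16% increased and 2.13% decreased, and no test set the hosts against this background. Among the hosts that increased were Tenm4 (0.40 ± 0.06), Slit3 (0.41 ± 0.08), Ptk2 (0.31 ± 0.06) and Opcml (0.27 ± 0.07). Among those that decreased were Trps1 (-0.74 ± 0.13), Zbtb20 (-0.47 ± 0.10) and Htr2c (-0.69 ± 0.15), of which Trps1 and Zbtb20 encode transcription factors and Htr2c a serotonin receptor. These 7 hosts were chosen after their values had been seen. Control mouse 4, which had the highest level of striatal markers, was the highest of all mice for Trps1, Zbtb20 and Htr2c. The number of called hosts fell from 29 to 4 without control 2, CUS 4 or CUS 5, to 9 without CUS 3 and to 13 without CUS 1, and it rose to 73 without control 3.

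Across 332 tested pairs with 287 hosts, the log2 fold changes of member and host correlated with Pearson's r = 0.54, and the signs were equal in 233. In the 65 pairs whose member held 500 or more reads, r was 0.78, and outside the domain it was 0.50 over 312 pairs. This is a correlation across genes within the same 9 mice, so the points share libraries and depth. Where the counting assigned a read to both genes, they also share reads. The SD of the member values (0.31) was larger than that of the host values (0.17).

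**Figure D4:**
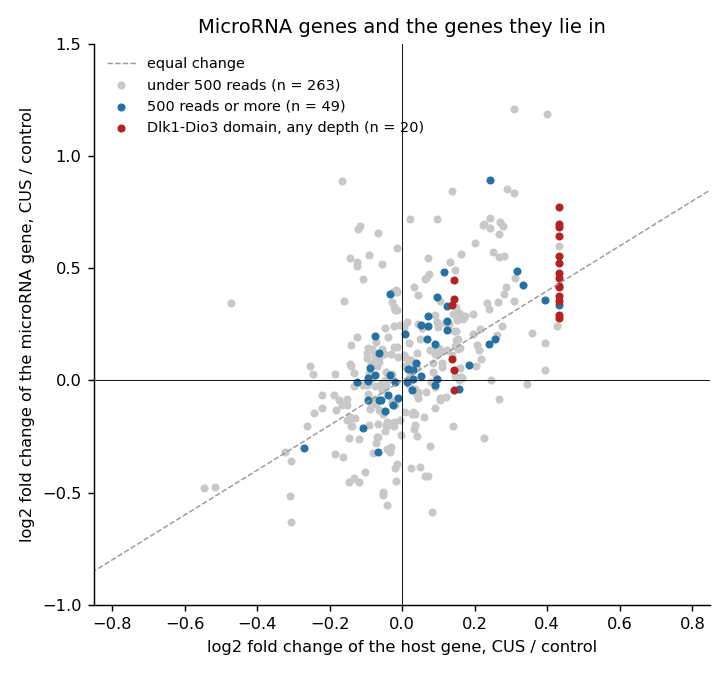
Log2 fold change of each tested microRNA gene (vertical axis) against that of its same-strand host gene (horizontal axis), with the line of equal change. Points outside the Dlk1-Dio3 domain are gray below 500 reads (n = 263) and blue from 500 reads (n = 49), and the 20 domain members are red. The deeper members lie nearer to the line than the shallow ones, and the Mirg members form the red column at 0.43.

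For each member with a host, the ratio of its reads to the host's reads was compared between groups. Of 471 ratios, 26 (5.52%) had an exact permutation p under 0.05, with 19 higher and 7 lower in CUS mice, and the smallest possible p was 0.00794. No adjustment was made for the 471 tests, and the share of 5.52% is close to what the threshold of 0.05 allows without any difference. The smallest p was reached with a higher ratio by Gm25241 (1.27 on the log2 scale, exact permutation test, p = 0.00794), Mir6391 (0.75, same p) and Mir677 (0.42, same p). A single CUS mouse stood far above the other CUS mice for Mir6391 (mouse 5, 0.413 against 0.168 to 0.232 CPM). The same held for Mir677 (mouse 2, 2.09 against 1.34 to 1.45 CPM). For Gm25241, with 73 reads, the host 9330111N05Rik decreased (-0.71 ± 0.12, edgeR adjusted p = 0.0119), while the member had 0.227, 0.135, 0.411 and 0.164 CPM in controls and 0.320, 0.355, 0.303, 0.331 and 0.344 CPM in CUS mice. Control 3 lay above all CUS mice for the member. Among lower ratios, Mir6945 (-0.95), Mir7237 (-0.85) and Mir7060 (-0.77) had the largest differences of those tied at the smallest p (exact permutation test, p = 0.0397 each), and each held at most 64 reads. The count of 26 was 12 without control 1 or control 2, 22 without control 3 and 29 without control 4, and without CUS mice 1 to 5 it was 10, 9, 11, 10 and 13. With fewer mice the test also has fewer splits to draw on.

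Read density relative to the host was high over all positions. Per kb, the median member held 3.96 times the reads of its host, and 448 of 471 were denser. By position, the median was 4.58 in exons, 8.00 at exon edges and 3.34 in introns. The limit of 45 reads favors dense members, so the same ratio was taken over all microRNA genes whose host alone predicted 20 or more reads for the interval, whatever their own reads. Over these 462 genes, 358 of them members, the median was 2.53, with 3.76 in exons (n = 124), 6.10 at exon edges (n = 46) and 1.96 in introns (n = 291), and 366 were denser than the host. How reads that reach past a gene's ends were counted is not given in the sources used here, and such reads weigh more in an interval of some 81 bases than in a long gene.

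**Figure D5:**
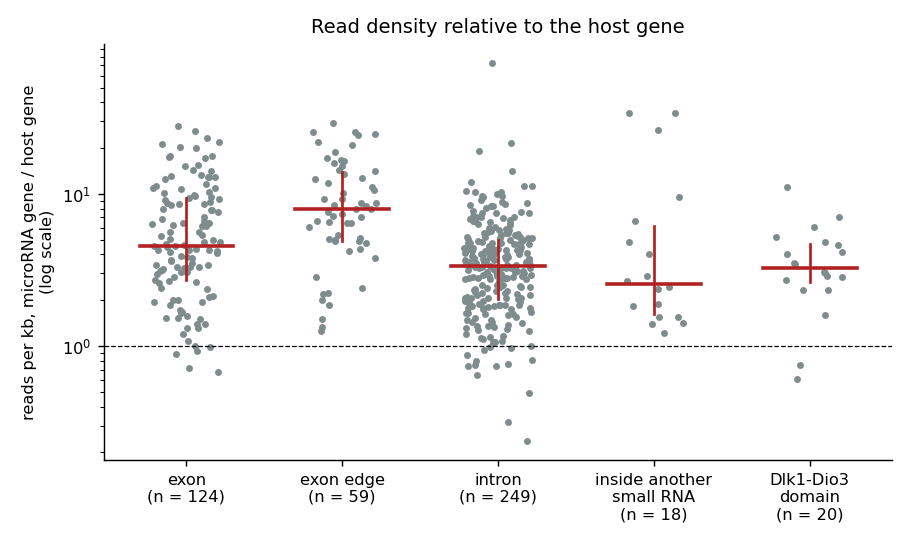
Reads per kb of the microRNA gene divided by reads per kb of its host (vertical axis, log scale) for members by position, with the median and the range from the first to the third quartile in red and the line of equal density dashed. Medians lie between 2.56 (inside another small RNA) and 8.00 (exon edge), and the highest point is Gm25241 at 72.6.

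The genes of the microRNA pathway were measured in the same libraries. Of 33 listed symbols 31 were in the files, 30 were tested and none passed by the edgeR quasi-likelihood test, with 6 at an unadjusted p under 0.05 (1 higher and 5 lower), beside 21.5% of all genes. The edgeR likelihood ratio test called 2 and DESeq2 3 of them, and without control mouse 3 the quasi-likelihood test called 4. Over all genes these fits called 7.23%, 7.62% and 8.1%. Among nuclear processing genes, Drosha, the nuclease, had 105 ± 6.04 CPM in controls (SD, n = 4) and 103 ± 0.992 CPM in CUS mice (SD, n = 5), and its partner Dgcr8 had 64.3 ± 3.22 and 62.3 ± 2.51 CPM. Their log2 fold changes were -0.02 ± 0.05 and -0.05 ± 0.05. Hnrnpa2b1, an RNA-binding protein of this step, had -0.28 ± 0.08 (edgeR adjusted p = 0.0710).

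In dicing and export, Dicer1 had -0.11 ± 0.05 (edgeR adjusted p = 0.200), its partner Tarbp2 0.29 ± 0.09 (edgeR adjusted p = 0.0844) and the exporter Xpo5 0.09 ± 0.06. In the silencing complex, Ago2 had -0.15 ± 0.08, and Tnrc6a, a scaffold of silencing, -0.15 ± 0.05 (edgeR adjusted p = 0.0766). In turnover, the exonuclease Xrn2 had -0.20 ± 0.06 (edgeR adjusted p = 0.0652). Groups did not overlap for Dicer1, Tnrc6a and Xrn2, with CUS below, beside 4.70% of all genes. Tarbp2 was the only pathway gene with CUS above, beside 4.06% of all genes. The median over the 30 genes was -0.02, against 0.01 over all genes. Members also lay within Drosha and Dgcr8 themselves. Gm47288, at an exon edge of Drosha, had 0.33 ± 0.18 and held 10.2 times the host's reads per kb. Mir1306, in an exon of Dgcr8, had 0.04 ± 0.15 at 12.8 times the density of the host.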

How the data were processed

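Medial prefrontal nuclei of 9 mice (4 control, 5 CUS) were profiled by stranded total RNA-seq. The authors aligned reads with STAR to the mm10 genome, kept uniquely mapped reads and deposited raw counts per gene, made with their own program. How it treated overlapping genes is not given in the sources used here. The single-nucleus tables of the series were not used. Counts were tested with edgeR 4.0.16 (quasi-likelihood F test, filterByExpr, TMM, Benjamini-Hochberg over 18394 genes, FDR 0.05). The study used edgeR's likelihood ratio test, run here as an alternative beside DESeq2 1.42.0. Levels are TMM-scaled CPM. The fits were tested on simulated data.

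The host is the smallest same-strand gene of another class that wholly contains the microRNA gene. Ratios to the host, log2 with 0.5 read added to each count, were compared by two-sided exact permutation of mice. All 2202 microRNA genes had the positions of GENCODE M21, which gave exons and small RNA genes. The members and the gene lists were chosen with earlier results of these data known. Named genes were the called members and their hosts, the 10 deepest members, a list of brain and cell type microRNAs, hosts of 3 or more members and the 3 members with the smallest ratio p in each direction. Alternatives were other tests and scalings, no filter, a replicate block, other limits and hosts, and leaving out each mouse.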

Additional observations from a re-analysis of the deposited data

Results flagged for a closer look

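Among 98 groups of mice (control or CUS mice for each named member), 4 held a single mouse far from the rest by Dixon's gap test at the 95% level. Chance flags about 1 in 20 such groups. CUS mouse 3 had 39.9 CPM of Gm49347, the member in Snora74a, against 24.2 to 27.5 CPM in the other CUS mice. Control mouse 3 had 1.27 CPM of Mir3072, against 0.982 to 1.01 CPM in the other controls. CUS mouse 5 had 0.413 CPM of Mir6391, against 0.168 to 0.232 CPM, and CUS mouse 2 had 2.09 CPM of Mir677, against 1.34 to 1.45 CPM. The last 2 genes are among the 3 with the smallest p of the ratio to the host.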

How the results depend on the processing

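The direction of the 8 called members held in each alternative run, while the number of calls did not. The edgeR likelihood ratio test called 21 members, 47 hosts and 2 pathway genes, and DESeq2 16, 57 and 3, while over all genes these tests called 7.23% and 7.62%. Without TMM factors 7 members and 1 pathway gene were called. With each mouse left out in turn, the called members ranged from 0 to 11, hosts from 4 to 73, pathway genes from 0 to 4, domain genes from 1 to 2 and ratios to the host from 9 to 29. The cause was not tested.

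A replicate block gave 2 called members and 11 hosts, with 1.29% of all genes called. Both members lay outside the Dlk1-Dio3 domain, so none of the 6 domain calls passed in that fit. The labels' replicate numbers were not treated as pairing the mice, since same-numbered mice deviated together with correlations of only 0.04, 0.15, 0.02 and 0.09. Under the block Gm25994 turned to 0.0285 and Mir22 to -0.0494.

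Of 722 alternative values for named genes, 618 kept direction and side of the threshold, 61 lost the call, 19 gained it and 24 changed sign, all for genes that were not called. With mice left out, log2 fold changes that crossed 0 ranged from -0.17 to 0.000236 for Ddx5, -0.0506 to 0.0018 for Drosha, -0.0938 to 0.102 for Gm25994, -0.0175 to 0.193 for Gm47304, -0.244 to 0.00184 for Gm49347, -0.10 to 0.15 for Mir137, -0.259 to 0.0632 for Mir138-2, -0.00388 to 0.201 for Mir1906-1, -0.0358 to 0.192 for Mir22, -0.12 to 0.58 for Mir9-2 and -0.187 to 0.0107 for Snhg4. Of the members, 202 held under 100 reads, and 402 of the 550 were tested.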
